A study of Mus musculus with 2 samples.

Results

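The genes described here, in single mammary cells of mice that the labels do not call lactating, serve milk synthesis: Csn1s1, Csn1s2a, Csn2, Csn3, Lalba, Wap, Btn1a1, Xdh, Plin2 and Cel. They were chosen by symbol, and all 10 were found among the 31053 genes counted. The data were 10x 3′ counts of unique molecular identifiers (UMIs, each standing for 1 captured RNA molecule) from 2 libraries, 1 per genotype. The control library (Ctrl) came from miR-200c/141-flox/flox mice. The other library (cKO) came from K8-CreERT2;miR-200c/141-flox/flox mice, in which the Krt8 promoter, active in luminal cells, drives a Cre that tamoxifen switches on. All mice were C57BL/6 and received tamoxifen at 8 to 10 weeks of age, the control mice included. The glands were collected after a further 4 weeks, and FACS enriched the mammary cells. An age of 8 weeks stands in the labels as well, without the number of mice behind a library. The deletion was not checked here, because the gene counts do not measure the microRNAs.

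Milk proteins are made by alveolar cells, which arise from luminal progenitors in pregnancy when prolactin acts through its receptor, JAK2 and the transcription factor STAT5. Csn1s1, Csn1s2a and Csn2 encode calcium-sensitive caseins, and below that term means these genes only, not Csn1s2b, a casein gene outside the list. Csn3 encodes kappa-casein, which caps the casein micelle, and Wap encodes whey acidic protein. Lalba encodes alpha-lactalbumin, the cofactor that turns a galactosyltransferase into lactose synthase. Btn1a1 encodes butyrophilin, Xdh encodes xanthine dehydrogenase and Plin2 encodes a lipid droplet coat protein, which meet in the membrane of the secreted milk fat globule. Cel encodes a bile salt-stimulated lipase that is secreted into milk. In the resting gland most luminal cells make little milk protein, and kappa-casein RNA is known from luminal progenitors before pregnancy.

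The 4 caseins of the list lie together on chromosome 5 of GRCm38, in a stretch of 266.5 kb with 7 protein-coding genes. In order along the chromosome these are Csn1s1 (chr5:87666208-87682578), Csn2 (chr5:87692624-87699630, minus strand), Csn1s2a (chr5:87774567-87788797), Csn1s2b, Prr27, Odam and Csn3 (chr5:87925579-87932665). The other members are each on a chromosome of their own: Lalba on 15, Wap on 11, Btn1a1 on 13, Xdh on 17, Plin2 on 4 and Cel on 2. Csn3 and Cel each overlap an annotated antisense gene that was counted as well, 1700066N21Rik and Gm13381, and the sources used here do not give the strand setting of the counting. Xdh holds a processed pseudogene on its own strand.

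Of the 10 genes, 7 had a promoter in the RefSeq table for GRCm38.p6, which gives 250 bases before and 50 bases after the gene's start. The motif TTCNNNGAA, the core that STAT5 binds, was searched on both strands of these windows. It was found once each at Csn1s1, Csn2 and Csn1s2a and not in the windows of Lalba, Wap, Plin2 and Cel, while 2288 of 27025 promoters (8.47%) held it. The 3 matches are shown with 10 bases on each side because they belong to the 3 caseins whose UMIs were concentrated in a few cells. Lalba UMIs were concentrated as well, without a match in its window, and Csn3, Btn1a1 and Xdh had no promoter there. Capitals mark the motif, and each line runs 5′ to 3′ on the strand of the gene.
Csn1s1: tttgtaacaaTTCTTAGAAtttatgtaaa
Csn1s2a: ttatagtgctTTCTTAGAAttacaatgac
Csn2: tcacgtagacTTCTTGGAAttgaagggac
In the Csn1s1 line (chr5:87666098-87666126, plus strand) the motif begins 100 bases before the gene's start. In the Csn2 line (chr5:87699500-87699528, minus strand) it begins 93 bases before the RefSeq start, which is 112 bases inside the GENCODE gene model. In the Csn1s2a line (chr5:87774460-87774488, plus strand) it begins 20 bases after the RefSeq start and 97 bases before the GENCODE start. A match of letters is a description of the window and not a measured binding site.

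The 2 targeted microRNAs come from 1 locus on chromosome 6 and are shown, from RefSeq, because the cKO genotype is designed to remove them. Capitals mark the seed, bases 2 to 8, which pairs with target RNAs.
mmu-miR-141-3p: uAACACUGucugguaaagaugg
mmu-miR-200c-3p: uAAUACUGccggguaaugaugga
For each of the 10 genes the longest 3′ untranslated region of the annotation was searched. A match to the mmu-miR-141-3p seed was found in 1 gene, Csn3, and a match to the mmu-miR-200c-3p seed in 0. Over 21108 genes with such a region the shares were 17.96% and 13.9%. The median region there was 1084.5 bases long. Btn1a1 (1711) and Xdh (4096) were longer and the other members shorter, down to 131 bases in Wap, and length was not accounted for. The Csn3 match begins at position 820 of 1001 bases and is shown with its flanks, with the seed match in capitals.
Csn3 site: aatgaagcaatCAGTGTTcaatcgtatgt

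After filtering, 3389 Ctrl and 5438 cKO cells were kept. Ctrl cells were the deeper ones, at a median of 19799 UMIs per cell against 13905. The 2 libraries shared 6 cell barcodes, 5 of them among the kept cells. Cells were sorted into classes by the share of their UMIs that fell on fixed marker lists, with none of the 10 genes among the markers. The cuts were set after the marker scores had been seen, and a class is a gated range of scores, not a cell type. Luminal progenitor-gated cells (638 in Ctrl, 1051 in cKO) passed the list with Aldh1a3, Kit and Elf5, and hormone-sensing-gated cells (854 and 1655) the list with Prlr, Esr1 and Pgr. The remaining luminal class (567 and 871) passed both lists. Its median depth was 47791 UMIs in Ctrl and 28665 in cKO, above the 20721 and 13285 of luminal progenitor-gated cells, and whether its barcodes hold 2 cells each was not tested. Basal-gated (1076 and 937) and endothelial-gated cells (115 and 528) gave the background. Between 7.68% and 32.8% of the cells of a luminal class lay within a factor of 1.25 of a cut. In each luminal class all 6 shared luminal markers were detected in both libraries, which is no check of the label because the gate used that list. The adipocyte list, which was not gated, summed to at most 0.204 UMIs per 1000000 (CPM) in these classes. Fibroblast genes summed to 259 CPM in hormone-sensing-gated cells of Ctrl and to 216 CPM in cKO.

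Most milk synthesis genes were lower in luminal cells of cKO than of Ctrl, by less than 2-fold for Csn3 and by over 10-fold for Csn1s1. In luminal progenitor-gated cells, 7 of the 9 members with at least 20 UMIs were at least 1.5-fold lower in cKO and 0 were higher. Of all 11890 genes with that many UMIs there, 13.9% were lower by that factor and 7.45% higher. The median log2 ratio of the members was -1.56, against -0.12 over all genes. It includes Csn1s2a (-3.79) and Csn2 (-7.49), whose differences hung on 2 Ctrl cells, as described below. No median without these cells is given. In hormone-sensing-gated cells 4 of 8 members were lower and 0 higher, with 18.2% and 13.5% of all genes. In the class with both marker sets 4 of 7 were lower and 0 higher, with 17% and 10.8% of all genes. Csn3 is 1 of these 4, and under TMM scaling its log2 ratio there was -0.51, short of 1.5-fold, which leaves 3. In basal-gated cells 1 of 3 members was lower, beside 9.07% of all genes, and 0 were higher, beside 9.65%. In endothelial-gated cells 1 of 4 was lower, beside 10.1%, and 2 were higher, beside 19.4%. With 1 library per genotype there is no test of these differences. All intervals below are 95% intervals that cover counting error only, not the spread between mice, and UMIs of 1 cell are not independent of each other.

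**Figure D1:**
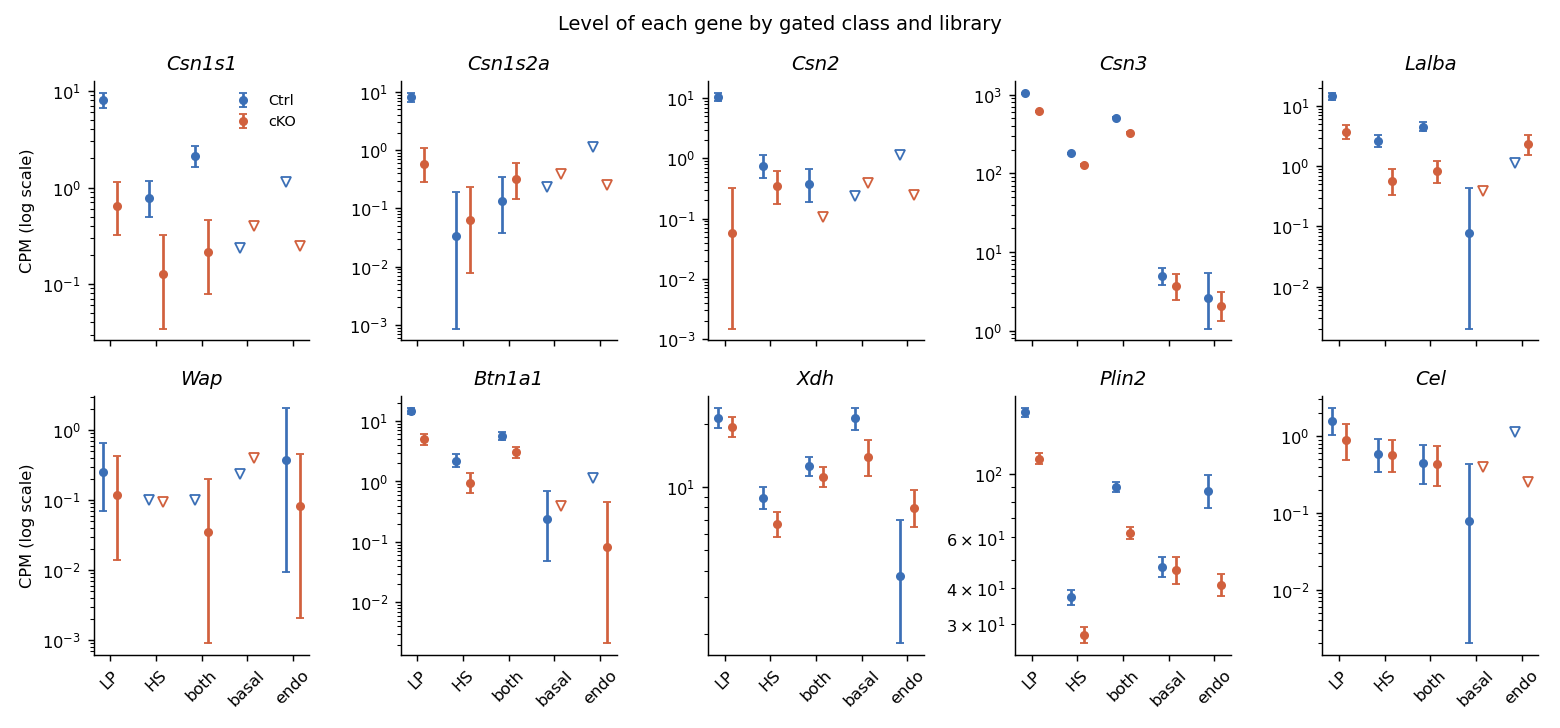
CPM (log axis, ranges differ between panels) of each of the 10 genes in luminal progenitor-gated (LP), hormone-sensing-gated (HS), both-marker (both), basal and endothelial (endo) cells of Ctrl (blue) and cKO (orange), 1 library each. Points are levels with exact Poisson 95% intervals, and open triangles mark the level of 3 UMIs where 0 were counted. Csn3 stood at 1041 CPM in luminal progenitor-gated cells of Ctrl and at 614 in cKO, and below 5 CPM in basal and endothelial cells of both.

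Among the members, Csn1s1, Csn1s2a and Csn2 showed the largest ratios and rested on few cells. Csn1s1 stood at 8.04 CPM in luminal progenitor-gated cells of Ctrl (126 UMIs) and 0.645 CPM in cKO (11 UMIs), 12.5-fold lower (6.74 to 25.6). Csn1s2a stood at 8.11 CPM (127 UMIs) and 0.586 CPM (10 UMIs), 13.8-fold lower (7.28 to 29.6). Csn2 stood at 10.53 CPM (165 UMIs) and 0.0586 CPM (1 UMI), a ratio of 180 (31.8 to 7144). These UMIs came from 15 of 638 Ctrl cells for Csn1s1, and from 3 each for Csn1s2a and Csn2. In cKO they came from 5, 7 and 1 of 1051 cells. The Csn1s1 difference was also present in the other luminal classes, with 23 UMIs in Ctrl and 4 in cKO among hormone-sensing-gated cells and 62 and 6 among cells with both marker sets, the latter 9.87-fold lower (4.29 to 27.9). In Ctrl a single cell held 14 of the 23, and another held 30 of the 62. Csn2 counted 22 and 11 UMIs among hormone-sensing-gated cells, where its ratio of 2.15 had an interval from 0.998 to 4.90. A single cell held 16 of the 22 in Ctrl, and a single cell held all 11 in cKO. Among cells with both marker sets Csn2 counted 11 and 0. That is 3.501-fold lower with the 0 set to 3 UMIs, and the exact interval reaches down to 2.40-fold. Csn1s2a outside the luminal progenitor gate was near 0 in both libraries, with 5 UMIs in Ctrl and 11 in cKO over the other 2 luminal classes. In basal- and endothelial-gated cells 0 UMIs of these 3 caseins were counted in either library. The exact intervals reach up to 0.290 and 0.486 CPM in basal cells of Ctrl and cKO and up to 1.39 and 0.306 CPM in endothelial cells.

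The Csn1s2a and Csn2 differences in luminal progenitor-gated cells hung on 2 Ctrl cells. These 2 cells held 99.2% of the Csn1s2a UMIs and 99.4% of the Csn2 UMIs of the class. Without them, Csn1s2a counted 1 UMI in Ctrl against 10 in cKO, a log2 ratio of 3.19 in the opposite direction, and Csn2 counted 1 UMI in each library. Csn1s1 was spread over more cells, and without the top 1% of cells by milk gene UMIs in each library its log2 ratio was -2.59, against -3.64 with them. Without the 2 cells, 5 of the 7 members that still had at least 20 UMIs were at least 1.5-fold lower in cKO and 0 higher.

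Kappa-casein was the casein that most luminal progenitor-gated cells carried. Csn3 stood at 1041 CPM in these cells of Ctrl (1025 to 1057) and 614 CPM in cKO (602 to 626), 1.70-fold lower (1.65 to 1.74). In cells with both marker sets it stood at 512 and 331 CPM, and in hormone-sensing-gated cells at 179 and 127 CPM. Basal-gated cells held 4.95 and 3.69 CPM and endothelial-gated cells 2.64 and 2.07 CPM, a background whose ratio had an interval that includes no difference in either class. The order of the 3 luminal classes was the same in both libraries, and their intervals did not overlap. The median luminal progenitor-gated cell held 5.12 Csn3 UMIs per 10000 in Ctrl and 1.47 in cKO, and the cell at the 90th percentile 29.5 and 18.7. At an equal depth of 2000 UMIs per cell, 56.6% of luminal progenitor-gated cells in Ctrl and 40.4% in cKO were expected to hold a Csn3 UMI, against 1.02% and 0.797% of basal-gated and 0.438% and 0.425% of endothelial-gated cells. Without thinning the shares were 83.1% and 62.0%, and 4 Ctrl and 11 cKO cells were too shallow to be thinned.

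The Csn3 difference in hormone-sensing-gated cells depended on the gate. With the class drawn from Prlr alone the log2 ratio was -0.01, against -0.50 with the full list, while in luminal progenitor cells drawn from Aldh1a3 alone it was -0.68, against -0.76. In hormone-sensing-gated cells of cKO a single cell held 467 of the 4003 Csn3 UMIs, and without the top 1% of cells the log2 ratio was -0.87. Under that same removal it was -0.78 in luminal progenitor-gated cells.

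**Figure D2:**
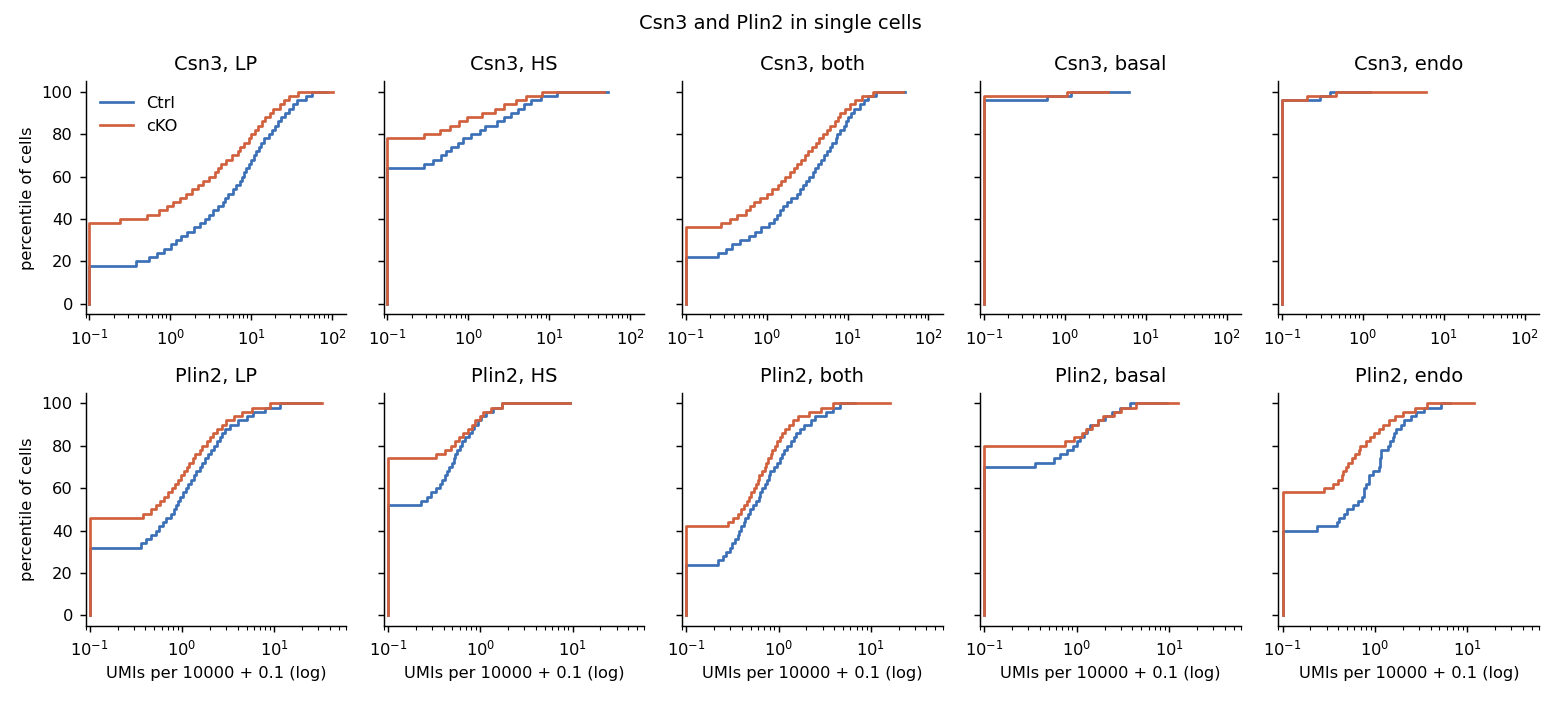
Percentile of cells (vertical axis) against UMIs per 10000 plus 0.1 (horizontal log axis) for Csn3 (top row) and Plin2 (bottom row) in each gated class of Ctrl (blue) and cKO (orange). A curve further left or higher means fewer UMIs per cell. Where they leave 0, the cKO curve of Csn3 lies left of the Ctrl curve over most percentiles in the 3 luminal classes. In luminal progenitor-gated (LP) cells the medians were 1.47 in cKO and 5.12 in Ctrl, and the highest cells 101.8 and 87.4. Both basal and endothelial Csn3 curves stay at 0 for most cells.

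Alpha-lactalbumin was lower in cKO in the luminal classes and was seen in endothelial-gated cells of cKO. Lalba stood at 14.6 CPM in luminal progenitor-gated cells of Ctrl (229 UMIs in 26 cells) and 3.75 CPM in cKO (64 UMIs in 16 cells), 3.90-fold lower (2.94 to 5.23). Among hormone-sensing-gated cells it was 4.59-fold lower (2.72 to 8.15), with 77 UMIs in Ctrl and 18 in cKO. Among cells with both marker sets it was 5.56-fold lower (3.56 to 9.08), with 134 and 23 UMIs. Csn1s1 and Lalba were the members past 3-fold in all 3 luminal classes. Endothelial-gated cells held 0 Lalba UMIs in Ctrl and 28 in cKO, the latter in 12 of 528 cells. With the 0 set to 3 UMIs this is 2.05-fold higher, and the exact interval reaches down to 1.56-fold. One of the 12 cells held 12 of the 28 UMIs and 0 of Csn3. The exact interval of the 115 Ctrl cells reaches up to 1.39 CPM, below the 2.32 CPM of cKO (1.54 to 3.36).

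Whey acidic protein RNA was at the limit of detection in both libraries. Wap counted 4 UMIs in 4 luminal progenitor-gated cells of Ctrl and 2 UMIs in 2 cells of cKO, with no cell holding more than 1. In hormone-sensing-gated and basal-gated cells it counted 0 in both libraries. Endothelial-gated cells held 1 Wap UMI in each library, 0.377 CPM in Ctrl and 0.0829 CPM in cKO. Luminal progenitor-gated cells stood at 0.255 and 0.117 CPM, so Wap was not clearly above this background. Wap was below 20 UMIs in every class, so that no ratio is given.

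Of the milk fat globule genes, Btn1a1 differed more between the libraries than Csn3 did in luminal progenitor-gated cells, Plin2 somewhat less and Xdh least. Btn1a1 stood at 14.7 CPM in luminal progenitor-gated cells of Ctrl (230 UMIs) and at 4.98 CPM in cKO (85 UMIs), 2.95-fold lower (2.29 to 3.83). It was 2.33-fold lower (1.49 to 3.71) among hormone-sensing-gated cells and 1.85-fold lower (1.42 to 2.43) among cells with both marker sets. Basal-gated cells held 3 and 0 Btn1a1 UMIs. Unlike the calcium-sensitive caseins, Btn1a1 was spread thinly over many cells: 145 of 638 luminal progenitor-gated cells in Ctrl and 77 of 1051 in cKO held at least 1 UMI, and none of these cells held more than 6.

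Xdh, the enzyme of purine breakdown that also takes part in fat globule secretion, was close to level in luminal progenitor-gated cells. It stood at 21.3 CPM in Ctrl against 19.3 CPM in cKO, a log2 ratio of -0.15 (-0.37 to 0.08), and the mean over cells gave 0.16, in the other direction. In cells with both marker sets the log2 ratio was -0.17, at 12.6 and 11.2 CPM, and in hormone-sensing-gated cells it was 1.34-fold lower (1.11 to 1.61), at 8.90 and 6.65 CPM. Xdh was also present outside the luminal lineage. Basal-gated cells held 21.2 and 13.8 CPM, 1.53-fold lower in cKO (1.22 to 1.94), and endothelial-gated cells 3.77 and 7.96 CPM, 2.11-fold higher in cKO (1.10 to 4.54), with 10 UMIs in Ctrl.

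Plin2 was widespread and moderately lower in luminal cells of cKO. It stood at 164 CPM in luminal progenitor-gated cells of Ctrl (2569 UMIs) and 113 CPM in cKO (1929 UMIs), 1.45-fold lower (1.37 to 1.54). In cells with both marker sets it was 1.44-fold lower (1.36 to 1.53) and in hormone-sensing-gated cells 1.35-fold lower (1.24 to 1.48). These folds lie just under the 1.5 used for the counts above, so Plin2 is not among the members called lower in the luminal classes. Basal-gated cells held 47.3 and 46.1 CPM, a log2 ratio of -0.04, and endothelial-gated cells 87.1 and 41.0 CPM, 2.12-fold lower in cKO (1.81 to 2.49). Endothelial-gated cells were 3.39% of kept cells in Ctrl and 9.71% in cKO, and the part of this in the Plin2 difference was not tested.

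Cel was rare, with 25 UMIs in luminal progenitor-gated cells of Ctrl and 15 in cKO, a 1.82-fold difference with an interval from 0.921 to 3.70. In hormone-sensing-gated cells it counted 17 and 18 UMIs and in cells with both marker sets 13 and 12. It is counted among the 7 lower members by its fold, and its interval includes no difference.

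The folds that follow are over the 3 luminal classes counted together, with all cells. The median log2 ratio over all genes was below 0 in each of these classes, at -0.12 in luminal progenitor-gated and -0.11 in hormone-sensing-gated cells. Among cells with both marker sets it was -0.13. Csn2 was 17.0-fold lower in cKO (9.51 to 33.5), Csn1s1 10.4-fold (6.60 to 17.1) and Csn1s2a 6.48-fold (4.07 to 10.8). Lalba was 4.32-fold lower (3.48 to 5.39), Btn1a1 2.37-fold (2.002 to 2.81), Csn3 1.59-fold (1.56 to 1.61), Plin2 1.43-fold (1.38 to 1.49) and Xdh 1.17-fold (1.06 to 1.28). Cel was 1.26-fold lower (0.834 to 1.91). Without the 2 Ctrl cells named above, Csn1s2a counted 6 UMIs in Ctrl against 21 in cKO, a log2 ratio of 1.76 (0.41 to 3.36) in the opposite direction. Csn2 counted 34 against 12 there and was 2.92-fold lower (1.48 to 6.20), and Csn1s1 was 8.79-fold lower (5.58 to 14.6). A single hormone-sensing-gated cell held 16 of these 34 Csn2 UMIs in Ctrl, and another held 11 of the 12 in cKO. With all cells, the 3 largest folds rest on 13 Ctrl cells with Csn2, 31 with Csn1s1 and 8 with Csn1s2a.

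The members differed widely in how far single cells held their UMIs. In luminal progenitor-gated cells of Ctrl, the top 1% of cells for a gene (7 of 638) held 88.9% of Csn1s1 UMIs (82.1 to 93.8), 100% of Csn1s2a, 100% of Csn2 and 84.7% of Lalba (79.4 to 89.1). Genes with a like number of UMIs in the same cells had a median top share of 14.2% beside Csn1s1 and 10.8% beside Lalba. The top 7 cells for Csn1s1 held 2.17% of all UMIs of the class, and those for Lalba 2.03%. Csn3 (11.6%), Btn1a1 (15.2%), Xdh (14.4%) and Plin2 (16.3%) were above the median of like genes too, which was 5.18%, 10.7%, 9.15% and 5.54%, but held less than 17% each. Cel lay between, with 48% of its 25 UMIs (27.8 to 68.7) and a like-gene median of 35%. For Csn3 it took 72 cells to reach 50% of the UMIs, for Lalba 2 cells and for Csn1s1 3.

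In cKO, Lalba was again concentrated and Csn3 and Plin2 were spread. The top 1% of luminal progenitor-gated cells (11 of 1051) held 92.2% of Lalba UMIs (82.7 to 97.4), against a median of 25% for like genes. They held 11.1% of Csn3, 22.4% of Btn1a1, 14.9% of Xdh and 13.6% of Plin2, with like-gene medians of 5.88%, 21.4%, 11.2% and 6.53%. Csn1s1, Csn1s2a and Csn2 counted 11, 10 and 1 UMIs there, too few to compare concentration. Csn3 in hormone-sensing-gated cells was more concentrated than in the other luminal classes: 39.6% of its UMIs lay in the top 1% of cells in cKO and 21.4% in Ctrl, and 22.2% and 37.4% of the cells of this class held a Csn3 UMI.

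**Figure D3:**
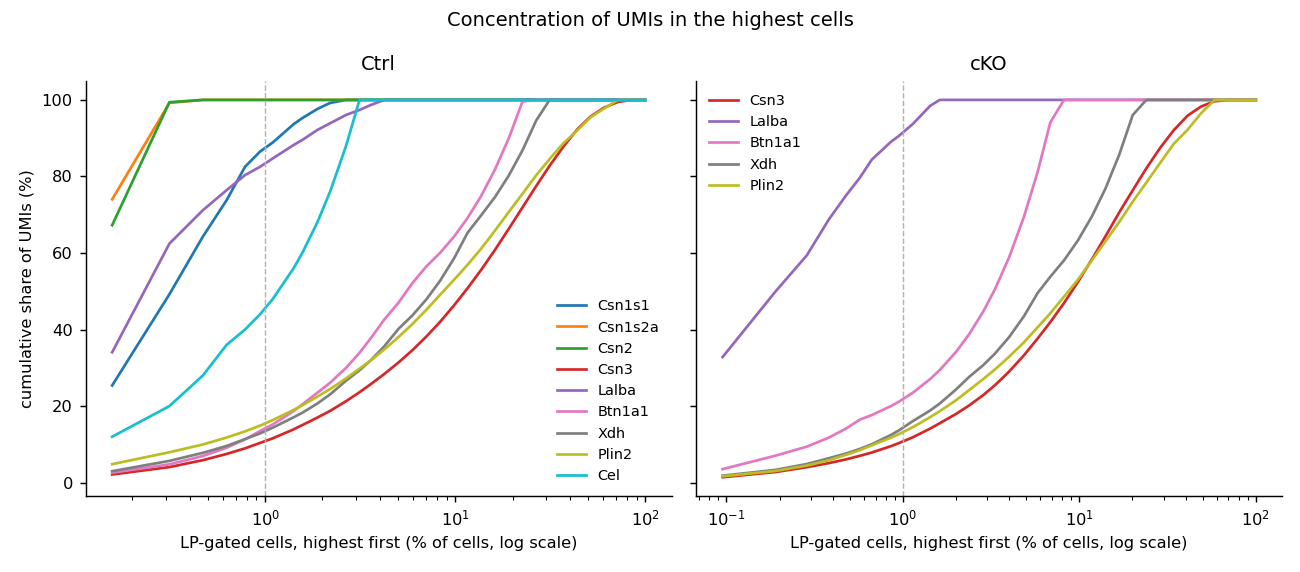
Cumulative share of a gene's UMIs (vertical axis, percent) against the share of luminal progenitor-gated (LP) cells counted from the highest downward (horizontal log axis, percent of cells), for members with at least 20 UMIs in Ctrl (left) and cKO (right). The dashed line marks 1% of cells. In Ctrl, Csn1s2a and Csn2 reach 100% and Csn1s1 and Lalba over 84% at or before that line, while Csn3, Btn1a1, Xdh and Plin2 lie between 11% and 17% there.

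The cells with the most milk protein RNA were few. Over Csn1s1, Csn1s2a, Csn2, Lalba and Wap together, 19 of 3389 Ctrl cells (0.561%, 0.338 to 0.874) and 4 of 5438 cKO cells (0.0736%, 0.0200 to 0.188) held at least 10 UMIs. The 19 Ctrl cells carried 76.5% of all UMIs of these 5 genes in the library. At a minimum of 5 UMIs the numbers were 32 and 10 cells. The 19 Ctrl cells were deep, with a median of 53292 UMIs against 19799 over all kept cells, and the 4 cKO cells had 25894.5 against 13905. The lower depth of cKO moves with these counts, and its part in them was not tested.

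A single Ctrl cell held UMIs of all 4 caseins of the list, Lalba and Wap. This luminal progenitor-gated cell held 69522 UMIs, with 32 of Csn1s1, 94 of Csn1s2a, 111 of Csn2, 347 of Csn3, 65 of Lalba and 1 of Wap. The second cell, also luminal progenitor-gated, held 32 of Csn1s2a and 53 of Csn2 with 0 of Csn1s1, 1 of Lalba and 19 of Csn3. The third held 78 of Lalba and 116 of Csn3 with 0 of Csn1s1, Csn1s2a and Csn2 and 1 of Csn1s2b. The fourth and the fifth held 30 of Csn1s1 each, with 13 and 1 of Lalba and 156 and 238 of Csn3. The top cells thus differed in which of the milk proteins they carried.

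**Figure D4:**
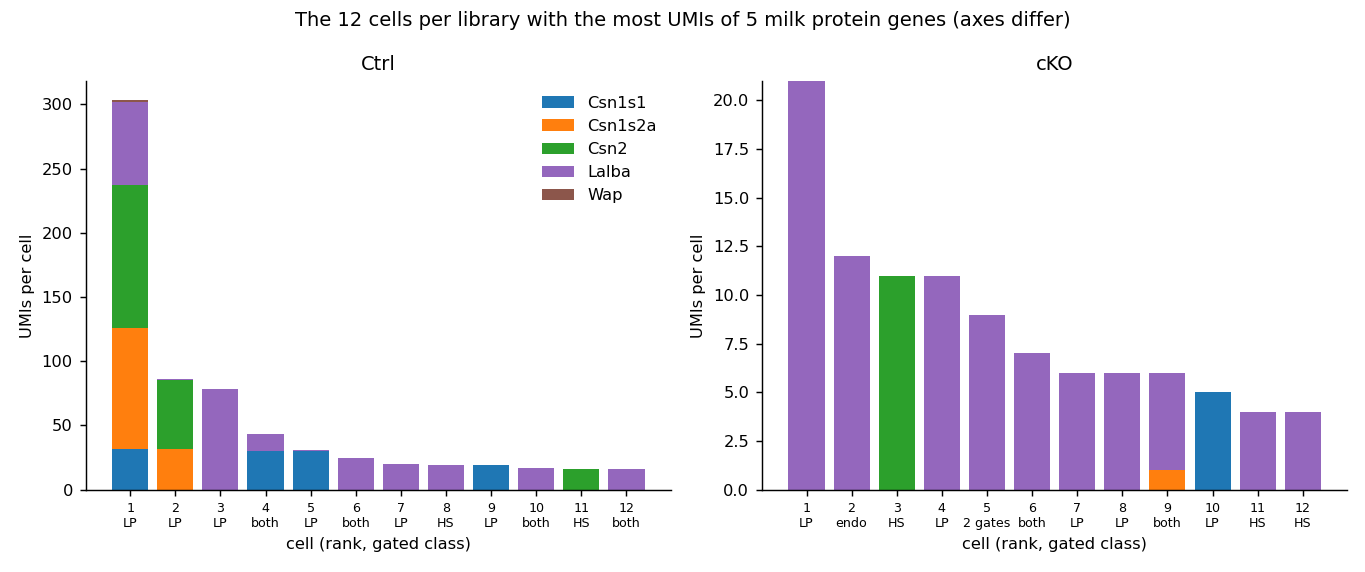
UMIs per cell (vertical axis, ranges differ) of Csn1s1, Csn1s2a, Csn2, Lalba and Wap, stacked, in the 12 cells of each library with the most of these UMIs, labelled by rank and gated class (2 gates: past 2 lineage gates). The highest Ctrl cell holds 303 UMIs of 4 genes and Wap, the highest cKO cell 21 UMIs of Lalba only, and most other bars have a single colour.

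Most high cells carried 1 of the 5 genes. Of the 19 Ctrl cells with at least 10 UMIs, 15 had UMIs of a single gene of the 5, and in 16 a single gene made at least 90% of them: Lalba in 10, Csn1s1 in 5 and Csn2 in 1. All 4 cKO cells carried a single gene, Lalba in 3 and Csn2 in 1. The highest cKO cell (luminal progenitor-gated, 21 UMIs of Lalba, 8.02% mitochondrial UMIs) held 0 of Csn3, as did the endothelial-gated cell with 12 of Lalba. A hormone-sensing-gated cell of cKO held 11 of Csn2 and 61 of Csn3.

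The 3 highest Ctrl cells lay inside the luminal progenitor gate, the third of them near its edge. Their shared luminal scores were 272, 587 and 121 UMIs per 10000 against a cut of 100, where the 10th percentile of the class was 229. Their luminal progenitor marker scores were 50.9, 59.6 and 39.2 UMIs per 10000 against a cut of 20, within the 29.1 to 105.6 of the 10th to 90th percentile of the class, and their hormone-sensing scores were at most 0.144. Other milk genes were uneven in these cells, and those named here were chosen after their values were seen. Trf, the gene of the iron carrier transferrin, a milk protein in rodents, stood at 64.2, 32.6 and 59.4 per 10000, where the class median was 18.9, and Mfge8, the gene of lactadherin of the milk fat globule, at 39.8, 27.8 and 30.1, where it was 20.3. Ltf stood at 4.03, 0 and 0 around a median of 0.781, and Muc1, a mucin gene of the globule membrane, at 1.15, 0 and 0 around 0.691. Stat5a, Jak2, Cish and Socs2 were at 0 in all 3 cells, as in the median cell. The transcription factor gene Elf5, itself a marker of the gate, stood at 2.16, 0.281 and 2.56, where the median was 0.240. Csn3 itself was at 49.9 and 33.0 per 10000 in the first and the third cell and at 5.34, close to the class median of 5.12, in the second.

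Across luminal cells, the calcium-sensitive caseins and Lalba occurred largely among cells that carried Csn3. All 31 Ctrl cells of the 3 luminal classes with a Csn1s1 UMI also held Csn3, as did 68 of the 69 with Lalba, 12 of the 13 with Csn2 and 7 of the 8 with Csn1s2a, while 63.0% of all 2059 luminal cells did. Ctrl cells with any of the 5 milk protein genes had a median of 48603.5 UMIs, and the part of depth in this overlap was not tested. Of the 31 cells with Csn1s1, 2 held Csn2 (6.45%, against 0.631% of all luminal cells), 1 held Csn1s2a (3.23% against 0.389%) and 5 held Lalba (16.1% against 3.35%). Most cells with Csn1s1 thus held none of the other 3, while the shares that did were above those of all luminal cells. In cKO, 27 of 34 luminal cells with Lalba and 9 of 11 with Csn1s1 held Csn3, against 44.3% of all 3577, and 0 of the 11 held Csn1s2a, Csn2 or Lalba.

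Correlations across luminal progenitor-gated cells of a library describe the same picture and share depth and free RNA as common sources. Pearson's r of log-scaled levels was 0.992 between Csn1s2a and Csn2 in Ctrl, which rests on the 2 cells above, and 0.287 between Csn1s1 and Csn1s2a, which rests on the 1 cell that held both. In cKO these values were -0.00213 and -0.00417. Csn3 and Plin2 had r = 0.278 in Ctrl (638 cells) and 0.240 in cKO (1051 cells). Of the genes outside the list, found in at least 5% of these cells of each library, none followed the summed Csn1s1, Csn1s2a and Csn2 closely. The 10 highest were Lipa, St3gal1, Pip5k1b, Sesn3, Primpol, Ptcd3, Syne3, Ccm2, Stk39 and Macrod1, and the first of them had r = 0.110 and 0.103, too weak to count as a finding in sparse counts. The genes most like Csn3 were chosen after the data were seen: Trf (r = 0.570 in Ctrl and 0.426 in cKO), Folr1, a folate receptor gene (0.394 and 0.304), and then Eif1, Ctsl, Khdrbs3, Srm, Car2, Cycs, Pgk1 and Tubb6.

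Other genes of milk production were lower and higher in about equal number in luminal progenitor-gated cells, but not in every luminal class. Of 14 genes of prolactin signalling and the transcription factors that act on milk genes, 1 was at least 1.5-fold lower and 1 at least 1.5-fold higher in luminal progenitor-gated cells of cKO. Of all genes there, 13.9% were lower and 7.45% higher by that factor. The median of the list's log2 ratios was -0.01. The lower one was Elf5, at 53.2 and 27.0 CPM, and the higher one was Prlr, the prolactin receptor, at 29.3 and 54.6 CPM. Both are markers that the gates used, so that their levels in a gated class are in part set by it. Stat5b (9.64 and 6.62 CPM) and Nfib (142 and 96.4 CPM), both transcription factor genes, were lower by less than 1.5-fold. Stat5a, the main STAT5 gene of the gland, was level in luminal progenitor-gated cells by its log2 ratio, 0.02 (-0.24 to 0.28), but stood at 121 and 65.9 CPM in hormone-sensing-gated cells and at 74.6 and 41.0 CPM in cells with both marker sets. Socs3, which encodes a feedback inhibitor of cytokine signalling, stood at 88.7 and 125 CPM, and Cebpb at 1286 and 1651 CPM. In hormone-sensing-gated cells 5 of the 14 were lower and 2 higher, beside 18.2% and 13.5% of all genes. In cells with both marker sets 3 were lower and 2 higher, beside 17% and 10.8%, which are near these counts.

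Among genes of lactose synthesis, the 5 described here differed by less than 1.5-fold between the libraries in luminal progenitor-gated cells. B4galt1, the galactosyltransferase that alpha-lactalbumin turns into lactose synthase, stood at 26.4 and 31.8 CPM in Ctrl and cKO. Slc2a1, the glucose transporter, stood at 195 and 235 CPM, Hk2 at 21.8 and 26.1, Hk1 at 26.3 and 22.3 and Slc35a2, the transporter of UDP-galactose into the Golgi, at 15.9 and 13.6. In these cells Lalba had a log2 ratio of -1.96 (-2.39 to -1.56) and B4galt1, its enzyme partner, 0.27 (0.08 to 0.46).

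Among milk fat genes, 12 of 16 had at least 20 UMIs in luminal progenitor-gated cells, of which 2 were at least 1.5-fold lower and 3 higher. The lower share was near the 13.9% of all genes, and the higher share was above the 7.45% of all genes. The median of their log2 ratios was -0.14. Mfge8 stood at 2185 and 1041 CPM in Ctrl and cKO, a log2 ratio of -1.07 (-1.10 to -1.04). Gpat4, an acyltransferase of triglyceride synthesis, stood at 25.2 and 16.3 CPM and Fasn, fatty acid synthase, at 6.83 and 5.39 CPM. Cidea, a lipid droplet protein gene that acts with Xdh and Btn1a1 in milk fat secretion, was higher in cKO, at 49.1 and 80.2 CPM, as was Dgat2, which completes triglycerides, at 8.11 and 12.3 CPM. Lpin1 stood at 3.58 and 4.69 CPM. The other higher gene was Scd2, a desaturase gene with 10 and 24 UMIs, named after its values were seen. In hormone-sensing-gated cells 7 of 14 milk fat genes were lower and 3 higher, beside 18.2% and 13.5% of all genes. Their median log2 ratio was -0.56. In cells with both marker sets 5 of 14 were lower and 3 higher, beside 17% and 10.8%, with a median of -0.39.

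Other milk components were also split, 3 of 13 being at least 1.5-fold lower and 4 higher. Both shares were above those of all genes in these cells, 13.9% lower and 7.45% higher. The median of their log2 ratios was -0.03. Trf stood at 2317 and 709 CPM in Ctrl and cKO, a log2 ratio of -1.71 (-1.74 to -1.68), and Spp1, osteopontin, at 244 and 84.3 CPM. Muc15 stood at 41.9 and 34.9 CPM. Ltf, lactoferrin, was higher in cKO at 379 and 614 CPM, as was Wfdc18, a whey acidic protein domain gene, at 3246 and 5311 CPM. Glycam1 stood at 30.1 and 155 CPM. In endothelial-gated cells Glycam1 stood at 120924 and 115574 CPM, and it was 28.5 and 194 CPM in basal-gated cells, and the share of endothelial-gated cells moved with it. The part of free RNA in this difference was not tested. Pigr (47 and 34 UMIs) and the casein gene Csn1s2b (10 and 18 UMIs) complete the counts and were named after their values were seen. In hormone-sensing-gated cells 5 of 13 of these components were lower and 3 higher, beside 18.2% and 13.5% of all genes. In cells with both marker sets 3 of 13 were lower and 5 higher, beside 17% and 10.8%.

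**Figure D5:**
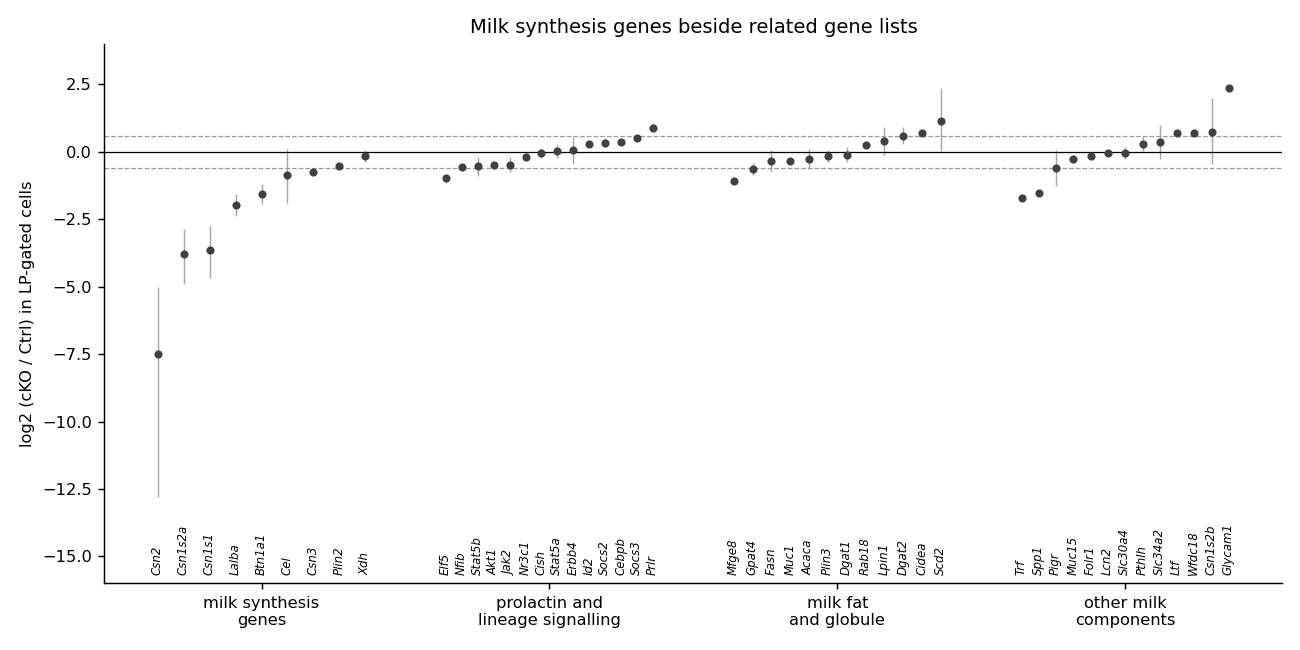
Log2 ratio of cKO over Ctrl in luminal progenitor-gated (LP) cells (vertical axis) for the milk synthesis genes and 3 related lists, 1 point per gene with at least 20 UMIs and its 95% counting interval, ordered by ratio and named along the bottom. Dashed lines mark 1.5-fold. The members lie below 0, with a median of -1.56 that includes Csn1s2a and Csn2, whose ratios rest on 2 Ctrl cells. The medians of the other lists lie between -0.14 and -0.01.

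Shares of cells at equal depth gave the same direction for most members. Thinned to 2000 UMIs, 8 of the 10 members had a lower expected share of luminal progenitor-gated cells with a UMI in cKO, the exceptions being Xdh (3.67% in Ctrl and 4.05% in cKO) and Wap (0.0472% and 0.0553%). Plin2 went from 21.8% to 17.0%, Btn1a1 from 2.69% to 1.02% and Lalba from 1.002% to 0.527%. Csn1s1 went from 0.605% to 0.112%, and these UMIs came from 15 and 5 cells. Csn1s2a, also among the 8, went from 0.293% to 0.151%, where 2 Ctrl cells held 94 and 32 of its UMIs. Without thinning its share was higher in cKO, at 0.666% against 0.470% in Ctrl. The direction at equal depth was not counted over all genes, so the 8 of 10 has no background beside it.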

How the data were processed

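UMI counts were deposited, as whole numbers for each gene and barcode and without normalization. Per the labels' protocols the libraries were 10x Chromium 3′ v2. Cell Ranger 2 and the build mm10 are named in the submitters' processing notes, and software version 3.0.0 per the file headers. Of 31053 genes, 31011 were found by identifier in GENCODE M21 (GRCm38). The files held 4237 Ctrl barcodes with 95520633 UMIs and 6257 cKO barcodes with 103668011 UMIs, none below 500.

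Cells with at least 500 genes and at most 10% mitochondrial UMIs were kept. Scrublet (scanpy 1.11.5), run per library, removed 27 of 3416 Ctrl cells (0.790%) and 55 of 5493 cKO cells (1.001%), below the 2.73% and 4.39% expected at 0.8% per 1000 cells. Gates were marker UMIs per 10000 of a cell: luminal at least 100, basal 20, endothelial 5 or fibroblast 30, exactly 1 lineage, then within luminal cells the luminal progenitor list at least 20 and the hormone-sensing list at least 5. Luminal cells past neither list (38 Ctrl, 123 cKO), cells past 2 lineages (78, 214) or none (16, 33) and fibroblast-gated cells (7, 26) were not compared. Of 12 marker lists, pericyte, myeloid, T and NK cell, B cell, adipocyte and dividing cell genes were read but not gated, and in luminal progenitor-gated cells they summed to at most 15.7 CPM in Ctrl and 27.0 CPM in cKO. Endothelial genes summed to 3.06 and 5.86 CPM there, fibroblast genes to 11.0 and 23.3 CPM and basal genes to 117 and 185 CPM.

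Sums of UMIs over the cells of a class in a library were divided by that class's total and given per 1000000 (CPM). Intervals are at 95% (scipy 1.17.1): Poisson for levels, Clopper-Pearson for shares and conditional binomial for ratios, all exact. For folds and plots a level at 0 UMIs is set to that of 3 UMIs. Members and genes with at least 20 UMIs over both libraries entered counts of 1.5-fold differences. The top 1% of cells was set beside genes with UMI numbers within a factor of 1.5. Shares at equal depth are expectations over all thinnings. The code was tested on simulated counts with known ratios. Named are all members, up to 3 genes with the highest and 3 with the lowest ratio of each related list with at least 100 UMIs, and the 10 genes most like the calcium-sensitive caseins. One gene that this rule names is not reported here, nor are the counts of its list. Stat5a, the genes most like Csn3 and the genes of the high cells were named after their values were seen. The members and lists were chosen with earlier results of these data known. Alternatives covered scaling (edgeR 4.0.16 TMM), denominator, cell weights, filters, doublets, gates, minimum UMIs, top share and thinning depth.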

Additional observations from a re-analysis of the deposited data

Results flagged for a closer look

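Lalba differed in opposite directions in luminal and endothelial-gated cells. The ratio of cKO over Ctrl was 0.256 in luminal progenitor-gated cells, 0.218 in hormone-sensing-gated cells and 0.180 in cells with both marker sets. In endothelial-gated cells, where Ctrl held 0 UMIs, it was 2.05 with the 0 set to 3, and the exact interval reaches down to 1.56. The difference between the classes was not tested, since each genotype had 1 library. Without the top 1% of endothelial-gated cells the log2 ratio, with the 0 set to 3 UMIs, was 0.19, with 16 UMIs left in cKO.

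Xdh was lower in cKO in basal-gated cells, with a ratio of 0.654, and higher in endothelial-gated cells, with a ratio of 2.11. The Ctrl level in endothelial-gated cells rests on 10 UMIs in 115 cells, and this difference was not tested either.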

How the results depend on the processing

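Over all settings, 123 of 130 recomputed counts stayed within 1.5 times their value and 7 moved further. Of 314 recomputed ratios of single genes, 278 stayed within their counting interval, 34 moved and 2 reversed. A ratio was called reversed only where its main value was past 1.5-fold. Sign changes of smaller ratios, as for Xdh with the mean over cells, are therefore not among the 2. In luminal progenitor-gated cells 5 to 8 members were lower and 0 higher under every setting run. Both reversals were Csn1s2a without the 2 highest Ctrl cells, a setting chosen after seeing the data: its log2 ratio there was 1.76 over the 3 luminal classes, on 27 UMIs, and 3.19 in luminal progenitor-gated cells, on 11 UMIs, where Csn2 stood at -0.13 on 2 UMIs and Lalba at -1.48. In basal-gated cells drawn from Krt5 alone the Csn3 log2 ratio was 0.26, on 84 UMIs, a change of sign from -0.43 with the full list. Without the top 1% of cells, 1 member in place of 2 was higher in endothelial-gated cells. With a minimum of 50 UMIs, 2 of 5 members in place of 4 of 8 were lower in hormone-sensing-gated cells and 1 was higher in endothelial-gated cells, since fewer members were counted. With a minimum of 1 UMI, 1 member was higher in hormone-sensing-gated cells, 1 was higher among cells with both marker sets and 2 in place of 1 were lower in endothelial-gated cells. With the top 5% in place of the top 1% of cells, 2 in place of 1 of the 5 members read in cKO held at least 50% of their UMIs there. TMM scaling raised each log2 ratio by 0.10 in luminal progenitor-gated cells and 0.12 in cells with both marker sets, and moved Csn3 in luminal progenitor-gated cells to -0.66 and Plin2 to -0.43, and Csn3 in cells with both marker sets to -0.51, where 3 in place of 4 members were then lower. The 1-marker gate gave no endothelial class. No replicate could be left out, and no paired analysis was possible because each genotype has 1 library. Wap, Cel and the calcium-sensitive caseins in cKO had too few UMIs for firm ratios in single classes.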

Other observations

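Genes of other milk components differed between the libraries in classes beyond the luminal progenitors. Trf was lower in cKO by log2 ratios of -2.08 in hormone-sensing-gated cells, -2.01 in cells with both marker sets and -2.16 in basal-gated cells, where it stood at 464 and 104 CPM, while in endothelial-gated cells it stood at 35.4 and 44.5 CPM. Mfge8 was lower in all 5 classes compared, by log2 ratios from -1.92 in basal-gated to -1.06 in endothelial-gated cells. Spp1 was lower in luminal progenitor-gated (-1.53), both-marker (-1.21), basal-gated (-3.20) and endothelial-gated cells (-4.27), and in hormone-sensing-gated cells its log2 ratio was -0.15. Ltf was higher in the 3 luminal classes, by 0.67 to 0.76, and Wfdc18 by 0.26 to 0.72. Folr1, which followed Csn3 from cell to cell, had a log2 ratio of -1.36 in hormone-sensing-gated cells, -0.79 in cells with both marker sets and -0.16 in luminal progenitor-gated cells.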
